A study of Mus musculus with 11 samples.

Results

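The genes described here encode the proteins of the cytosolic ribosome in the mouse tailbud. They were chosen by name, as protein-coding rows whose symbol is Rpl or Rps followed by a number, with an optional a, l or x, together with Rplp0, Rplp1, Rplp2 and Rpsa. This gave 80 of 56748 rows of the count table, 49 for the large subunit and 31 for the small subunit, of 21970 protein-coding rows. The tissue was tailbud dissected from mouse embryos at embryonic day 8.5, sequenced as polyA RNA in bulk. There were 3 libraries homozygous for the Fgfr1 FCPG allele, 4 homozygous for the Fgfr1 FCSPG allele and 4 from wild type (WT). Both mutant lines were made by point mutations at sites where FGFR1, an FGF receptor, binds effectors, and the stated question was how transcription in developing mesoderm depends on canonical FGF signalling. The labels name no transgene or Cre and do not say which residues differ between the alleles. They also leave out whether embryos were pooled and whether libraries stand for different embryos. The p-values therefore measure the spread between these libraries, and how much of it is technical is not known. Within each mutant group some libraries held Y-linked transcripts and others none, as given below. Each library is called by its genotype and its column number.

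Each cytosolic ribosome is built from a small subunit, which decodes the mRNA, and a large subunit, which joins the amino acids. Most of the proteins of both are needed in equal numbers, and their genes are among the most strongly transcribed in growing tissues. Their mRNAs typically begin with a run of pyrimidines (C or T in the DNA), the 5′ terminal oligopyrimidine or TOP motif, through which mTORC1 and LARP1 control how well they are translated. In mice, loss of function of single ribosomal protein genes can cause defects of the tail and skeleton, as with the Tail short mutation in Rpl38 and the Belly spot and tail mutation in Rpl24.

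RefSeq starts were matched by symbol for 60 of the 80 genes, in build GRCm38.p6. The 40 bases around the start, 20 on each side, are shown because a run of C and T near the start was more frequent among these genes than over all genes and was not used by the choice by name. Capitals mark the longest unbroken run of C or T in each window. The first 5 are the genes with the largest log2 fold change of FCSPG over WT among genes with a single start in the table and at least 100 CPM (counts scaled to library size) on average, and the last 5 are those with the smallest.
Rps28 (chr17:33824543-33824582, minus strand): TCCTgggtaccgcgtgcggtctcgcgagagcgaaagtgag
Rpl38 (chr11:114668560-114668599, plus strand): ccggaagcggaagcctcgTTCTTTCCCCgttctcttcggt
Rpl39 (chrX:37085203-37085242, minus strand): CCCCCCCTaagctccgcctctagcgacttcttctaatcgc
Rpl37 (chr15:5116593-5116632, plus strand): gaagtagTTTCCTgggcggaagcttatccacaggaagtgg
Rpl35 (chr2:39005112-39005151, minus strand): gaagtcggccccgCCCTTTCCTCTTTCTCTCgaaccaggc
Rps6 (chr4:86857348-86857387, minus strand): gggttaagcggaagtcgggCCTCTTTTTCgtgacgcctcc
Rpsa (chr9:120127746-120127785, plus strand): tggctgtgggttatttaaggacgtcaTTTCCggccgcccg
Rpl6 (chr5:121204481-121204520, plus strand): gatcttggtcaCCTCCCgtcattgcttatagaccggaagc
Rps4x (chrX:102189372-102189411, minus strand): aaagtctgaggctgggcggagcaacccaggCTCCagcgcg
Rpl5 (chr5:107900508-107900547, plus strand): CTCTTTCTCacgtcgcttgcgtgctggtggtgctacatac

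A run of 8 or more C or T, read on the strand with the sequence of the mRNA, was found in 30 of 72 start windows of the ribosomal protein genes (41.7%), against 5272 of 32851 windows of all genes in the table (16%). The median longest run was 7 bases, against 5 bases over all windows. Long and short runs occurred in both sets shown above: Rpl35 held 18 bases in a row and Rps28 held 4, while Rps6 held 10 and Rps4x held 4. Over the 26 genes at 100 CPM or more whose longest run was 8 or more, the median log2 fold change of FCSPG over WT was 0.33. Over the 27 genes with shorter runs it was 0.28, within the same range of values (0.10 to 0.66, against 0.09 to 0.63 for the long runs). The match is a description of the letters near the annotated start, which need not be the start used in the tailbud.

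The libraries held 16014698 to 25453070 counts. Fgfr1 itself, whose point mutations leave the gene in place, lay at 178 to 242 CPM in FCPG, 162 to 248 CPM in FCSPG and 169 to 209 CPM in WT libraries, which does not test the genotype labels. The labelled cell types were checked by marker lists. The summed level of 6 markers of neuromesodermal progenitors was 94.5 to 1011 CPM in FCPG, 594 to 1110 CPM in FCSPG and 447 to 816 CPM in WT. The 9 somitic markers summed to 32.9 to 245 CPM in FCPG, 109 to 217 CPM in FCSPG and 186 to 331 CPM in WT, with Pax1 at 0 in 6 libraries, all of them mutant, and Uncx at 0 in 3 of those. The 5 intermediate mesoderm markers summed to 24.99 to 78.3, 43.6 to 74.1 and 48.9 to 89.3 CPM in FCPG, FCSPG and WT, with Pax8 at 0 in FCPG libraries 45 and 46. The 15 markers of visceral endoderm, which is not among the labelled cell types, summed to 1538 to 16479 CPM in FCPG, 759 to 3668 CPM in FCSPG and 130 to 1081 CPM in WT. Only Apoc2 and Apoa4 among them were at 0 in any library. The 8 primitive blood markers summed to 9.11 to 190 CPM in FCPG, 64.4 to 395 CPM in FCSPG and 262 to 3286 CPM in WT, with the highest value in WT library 26. Neural tube markers (6 genes) summed to 11.6 to 49.7, 23.4 to 145 and 29.4 to 111 CPM, and endothelial markers (6 genes) to 162 to 497, 195 to 270.2 and 281 to 310 CPM, in FCPG, FCSPG and WT. Y-linked transcripts were counted in FCPG libraries 19 and 45 and FCSPG library 32, and in none of the other 8.

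Ribosomal protein genes took up a sizeable part of every library. Their summed share of all counts was 7.13%, 4.85% and 5.45% in FCPG libraries 19, 45 and 46. It was 8.54%, 8.06%, 7.49% and 6.72% in FCSPG libraries 13, 27, 30 and 32, against 6.81%, 7.22%, 5.39% and 6.47% in WT libraries 24, 25, 26 and 33. The group means were 5.81% ± 1.18 in FCPG (SD, n = 3), 7.70% ± 0.78 in FCSPG (SD, n = 4) and 6.47% ± 0.78 in WT (SD, n = 4). The FCSPG mean was the highest and the FCPG mean the lowest, but all 3 groups overlapped: FCPG library 19 lay inside the FCSPG and WT ranges, and WT library 26 inside the FCPG range. In bulk RNA, fewer cells with a high ribosomal protein content and less of these mRNAs in each cell cannot be told apart.

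**Figure D1:**
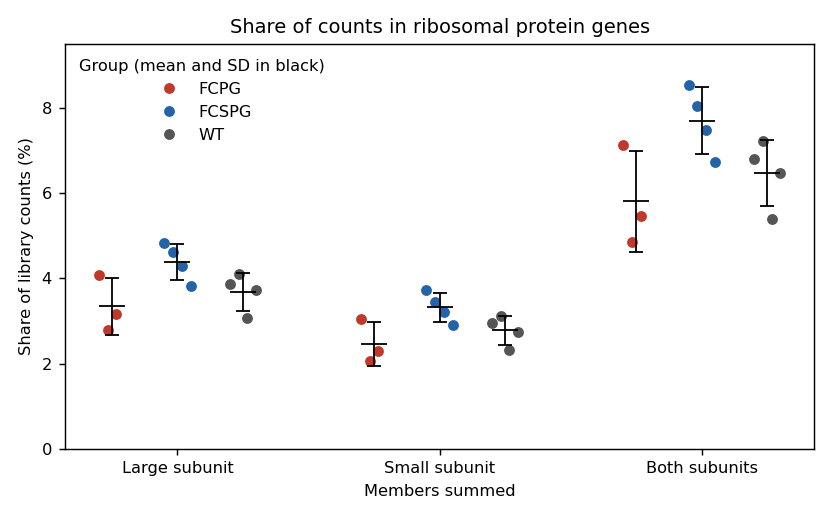
Share of each library's counts (%) in large subunit, small subunit and all ribosomal protein genes, with 1 point per library and the mean and SD of each group in black. FCSPG libraries reach from 6.72% to 8.54%, FCPG libraries from 4.85% to 7.13% and WT libraries from 5.39% to 7.22%.

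Of the 80 genes, 78 had enough counts to be tested, 47 of the large and 31 of the small subunit, among 16572 genes tested in all. The 2 genes left out, Rpl39l and Rpl3l, are low-level paralogues. A level of 100 CPM or more on average was reached by 71 genes, and 30 reached 1000 CPM. Compared per kilobase of the authors' gene length, over all 11 libraries, Rplp1 was highest at 3240 CPM per kb, ahead of Rpl41 at 1592 and Rps15 at 1572 CPM per kb. The order depends on the length used. Per kilobase of mRNA, Rplp1 was at 3240, Rpl41 at 3196, Rps2 at 2346 and Rps15 at 1980 CPM per kb. Rplp1 is an acidic protein of the stalk, the arm of the large subunit that recruits elongation factors; Rpl41 is the shortest ribosomal protein, with a coding length of 78 bases; and Rps15 lies in the head of the small subunit. The lowest tested genes were Rpl10l at 0.29, Rpl24 at 1.45 and Rpl29 at 5.39 CPM per kb. Rpl10l is an autosomal paralogue of the X-linked Rpl10 that is active in mouse spermatocytes. Rpl24 and Rpl29, by contrast, encode core proteins of the large subunit that are needed in equal numbers with their neighbours.

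FCPG against WT asks how the tailbud of the first mutant line differs, and here most ribosomal protein genes lay slightly below WT. The median log2 fold change of FCPG over WT over the 78 genes was −0.11, against 0.0019 over all genes tested. Other abundant coding genes of like length were also more often below 0 than above, as given below. Of the ribosomal protein genes 12 were above 0, or 15.4%, against 50.2% of all genes. Below 0 were 66, or 84.6%, against 49.8% of all genes. By edgeR's quasi-likelihood test, 0 genes passed at an adjusted p under 0.05 in either direction, and 0% of all genes did. At an unadjusted p under 0.05, 1 gene was higher (13% of all genes were) and 1 was lower (8.88% of all genes were). DESeq2 called 0 of them higher and 0 lower (6.21% and 2.7% of all genes), and limma-voom also called 0.

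The gene below that line was Rpl29, a core large subunit protein. It held 5.01, 3.96 and 4.56 CPM in FCPG libraries 19, 45 and 46, against 8.03, 6.95, 8.02 and 5.28 CPM in WT libraries 24, 25, 26 and 33. These are 95, 67 and 75 counts in FCPG, against 152, 148, 206 and 102 counts in WT. With a mean of 6.07 CPM the row is a low one, and whether it gives the full level of Rpl29 mRNA was not tested. Every FCPG library lay below every WT library, the log2 fold change was −0.65 ± 0.27 (SE), and edgeR's adjusted p was 0.196. It was the single gene without overlap on the lower side (1.28%, against 6.98% of all genes), and 0 genes were without overlap on the higher side (7.57% of all genes).

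The gene above the line was Rpl10l, with 0.63, 0.89 and 0.18 CPM in FCPG libraries 19, 45 and 46, against 0.11, 0.094, 0 and 0.26 CPM in WT libraries 24, 25, 26 and 33. These are 12, 15 and 3 counts in FCPG, against 2, 2, 0 and 5 counts in WT, so the groups overlap and rest on few reads. The log2 fold change was 2.31 ± 1.02 (SE) and edgeR's adjusted p was 0.214. The 3 libraries with Y-linked transcripts, FCPG 19, FCPG 45 and FCSPG 32, held the 3 highest values of Rpl10l, at 0.63, 0.89 and 0.55 CPM. Rpl10l passed the count filter through these 3 libraries, so its test is not independent of that filter. No WT library had Y-linked transcripts, and the part of embryo sex in the difference of Rpl10l was not tested.

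Abundant small subunit genes were among those below 0. Rpsa (chromosome 9, 119956755 to 119961435, mm39), which sits at the platform of the small subunit and is also known as the laminin receptor precursor, held 2167, 1703 and 1707 CPM in FCPG libraries, against 2428, 2818, 2057 and 2015 CPM in WT libraries. FCPG library 19 lay inside the WT range and the other 2 FCPG libraries below it; the log2 fold change was −0.33 ± 0.15 (SE), with an adjusted p of 0.236. Rps6, the target of the S6 kinases downstream of mTORC1, held 1339, 984 and 1038 CPM in FCPG, against 1399, 1518, 1176 and 1234 CPM in WT (log2 fold change −0.25 ± 0.14 SE, adjusted p = 0.328). Rps4x (chromosome X, 101228547 to 101233000, mm39), a small subunit gene, held 1548, 1070 and 1214 CPM in FCPG, against 1640, 1553, 1309 and 1426 CPM in WT. In each of these 3 genes it was FCPG library 19 that overlapped with WT.

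FCPG library 19 was the highest FCPG library for 76 of 78 genes. Without it the median of FCPG over WT was −0.30 and 4 genes lay above 0. In that fit edgeR called 2736 genes in all, Rps4x lower (log2 −0.38 ± 0.12 SE, adjusted p = 0.0473; 6.14% of all genes were called lower) and Rpl39l higher (log2 2.495 ± 0.76 SE, adjusted p = 0.0477; 9.91% of all genes were called higher). Rpl39l, a paralogue of Rpl39 known from the mouse testis, held 7, 21 and 16 counts in FCPG, against 2, 9, 2 and 3 counts in WT. It was not tested in the reported fit. Here FCPG libraries 45 and 46, where it was highest, made up the smallest group, and it passed the count filter through them. Its call is therefore not independent of that filter. Without FCPG library 19, 29 genes were lower at an unadjusted p under 0.05, as were 15.6% of all genes. Without FCPG library 45 or 46 the median was −0.05, with 26 and 23 genes above 0. It was −0.06 without WT library 25 and −0.21 without WT library 26, with 19 and 5 genes above 0. In these 5 fits 48.3% to 50.7% of all genes lay above 0.
FCPG library 19 also had the lowest summed visceral endoderm markers of its group, 1538 CPM, against 16479 and 4327 CPM in libraries 45 and 46, and the highest somitic markers, 245 CPM, against 34.4 and 32.9 CPM. The part of tissue makeup in these differences was not tested.

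FCSPG against WT asks the same of the other mutant line, and here the ribosomal protein genes lay on the higher side as a group. The median log2 fold change of FCSPG over WT was 0.30, against −0.0006 over all genes tested, and 75 of 78 genes were above 0, or 96.2%, against 49.9% of all genes. The 3 below 0 (3.85%, against 50.1% of all genes) were Rpl30, Rpl29 and Rpl13a, which are low rows of the table (32.8, 6.07 and 90.5 CPM on average). Most other abundant coding genes of like length also lay above 0, as given below. All 71 ribosomal protein genes at 100 CPM or more were above 0, from 0.09 for Rpl5 to 0.66 for Rps28. By edgeR, 0 genes passed at an adjusted p under 0.05, as over all genes (0%); DESeq2 (0.133% of all genes higher and 0.115% lower) and limma-voom called 0 of them. At an unadjusted p under 0.05, 34 genes were higher (43.6%, against 6.24% of all genes) and 0 lower (4.76% of all genes). In 16 genes every FCSPG library exceeded every WT library (20.5%, against 4% of all genes), and in 0 genes the reverse (3.35% of all genes).

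Among genes at 100 CPM or more, the largest values came from genes with short coding sequences. Rps28 (chromosome 17, 34038001 to 34043536, mm39) encodes a small subunit protein near the mRNA exit channel, and its row overlaps Kank3 on the other strand. It held 538, 468, 349 and 347 CPM in FCSPG libraries 13, 27, 30 and 32, against 309, 281, 192 and 294 CPM in WT libraries 24, 25, 26 and 33. All FCSPG libraries were above all WT libraries, with library 13 the highest and WT library 26 the lowest. The means were 426 ± 94.0 CPM in FCSPG and 269 ± 52.3 CPM in WT (SD, n = 4 each), a log2 fold change of 0.66 ± 0.20 (SE), with edgeR's adjusted p at 0.446.
Rpl38 (chromosome 11, 114559350 to 114563157, mm39), the gene mutated in Tail short mice, held 500.3, 426, 336 and 298 CPM in FCSPG, against 279, 269.7, 168 and 291 CPM in WT. The groups did not overlap, FCSPG library 32 standing just above WT library 33, and the log2 fold change was 0.63 ± 0.22 (SE, adjusted p = 0.446).
Rpl39, which lines the tunnel through which the new protein leaves the ribosome, held 409, 346, 324 and 334 CPM in FCSPG, against 283, 210, 176 and 276 CPM in WT. Again the groups did not overlap (log2 0.58 ± 0.18 SE, adjusted p = 0.446). Rpl37, a zinc-binding protein of the large subunit, held 798, 777, 648 and 566 CPM in FCSPG, against 527, 462, 371 and 539 CPM in WT, without overlap (log2 0.55 ± 0.16 SE).
Rpl35, next to the tunnel exit, held 920, 819, 705 and 599 CPM in FCSPG, against 580, 544, 403 and 585 CPM in WT, and the log2 fold change was 0.53 ± 0.16 (SE). Rps16, of the head of the small subunit, held 1116, 987, 850.1 and 811 CPM in FCSPG, against 731, 766.3, 592 and 729.9 CPM in WT (log2 0.42 ± 0.13 SE). Neither gene overlapped between the groups, and both had an adjusted p of 0.446.
In the authors' deposited table of this comparison, which lists only genes with an unadjusted p under 0.05, 38 ribosomal protein genes are listed as higher in FCSPG and 0 as lower. Of these, 3 have an adjusted p under 0.05 in the authors' deposited table: Rps28 (0.0376), Rpl37 (0.0385) and Rpl39 (0.0405). The authors' deposited table lists 3173 genes in all, 482 of them at that threshold (331 higher and 151 lower).

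**Figure D2:**
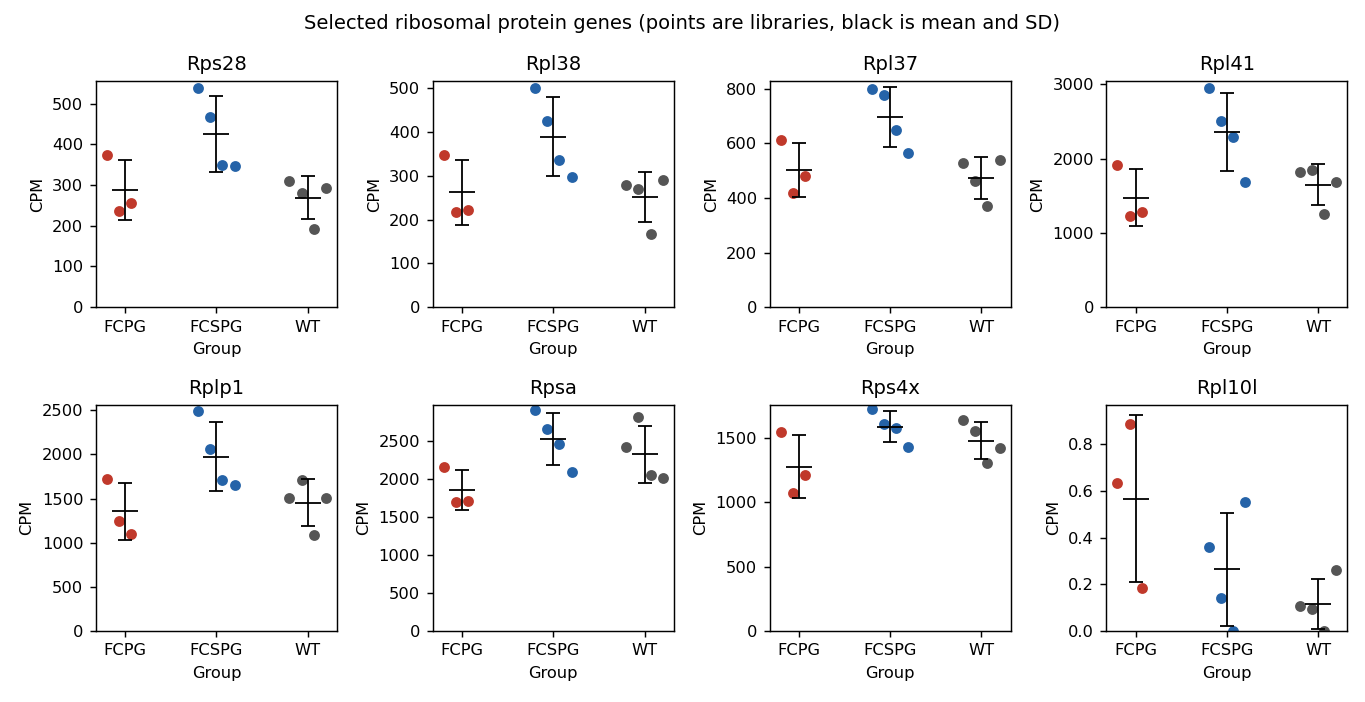
Level in CPM of 8 ribosomal protein genes in each library by group, with the mean and SD in black. Rps28, Rpl38 and Rpl37 have every FCSPG library above every WT library, while Rpsa, Rps4x and the rare paralogue Rpl10l overlap between all groups.

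The stalk proteins lay in the same direction with overlapping groups. Rplp1 held 2491, 2060.1, 1705 and 1651 CPM in FCSPG, against 1511, 1710, 1085 and 1508 CPM in WT, and WT library 25 lay above the 2 lowest FCSPG libraries (log2 0.44 ± 0.18 SE, adjusted p = 0.446). Rplp2, its partner, had a log2 fold change of 0.48 ± 0.19 (SE), and Rplp0, which anchors the stalk to the ribosome, one of 0.28 ± 0.12 (SE, adjusted p = 0.449).
Rpl41 held 2952, 2499.9, 2291 and 1684 CPM in FCSPG, against 1819, 1846, 1255 and 1685 CPM in WT. FCSPG library 32 lay below WT libraries 24, 25 and 33, and the log2 fold change was 0.51 ± 0.20 (SE).
At the other end were long genes. Rpl5, which binds the 5S rRNA and, with Rpl11, the p53 regulator Mdm2, held 1667, 1576, 1552 and 1437 CPM in FCSPG, against 1574, 1586, 1284 and 1411 CPM in WT. The groups overlapped and the log2 fold change was 0.09 ± 0.10 (SE). Rps4x was at 0.10 ± 0.12, Rpl6 at 0.10 ± 0.11 and Rpsa at 0.12 ± 0.14 (log2 fold change ± SE).

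A pair of libraries set much of this difference. WT library 26 was the lowest WT library for 75 of 78 genes, and FCSPG library 13 was the highest FCSPG library for 69 and the highest of all 11 libraries for 66. Without WT library 26 the median log2 fold change of FCSPG over WT was 0.23, and without FCSPG library 13 it was 0.21. The number of genes higher at an unadjusted p under 0.05 was then 9 and 8 in place of 34, against 2.85% and 2.24% of all genes. It was 14 without FCSPG library 27 (4.81% of all genes), 19 without WT library 24 (3.15% of all genes) and 19 without WT library 33 (7.42% of all genes). With WT library 26 and FCSPG library 13 both left out, which was chosen after seeing the data, the median was 0.13, 65 genes were above 0 (48.8% of all genes were) and 1 gene was higher at an unadjusted p under 0.05 (0.789% of all genes were). WT library 26 also had the highest summed primitive blood markers, at 3286 CPM, against 262 to 603 CPM in the other WT libraries. The part of blood cells in its low ribosomal protein levels was not tested.

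**Figure D3:**
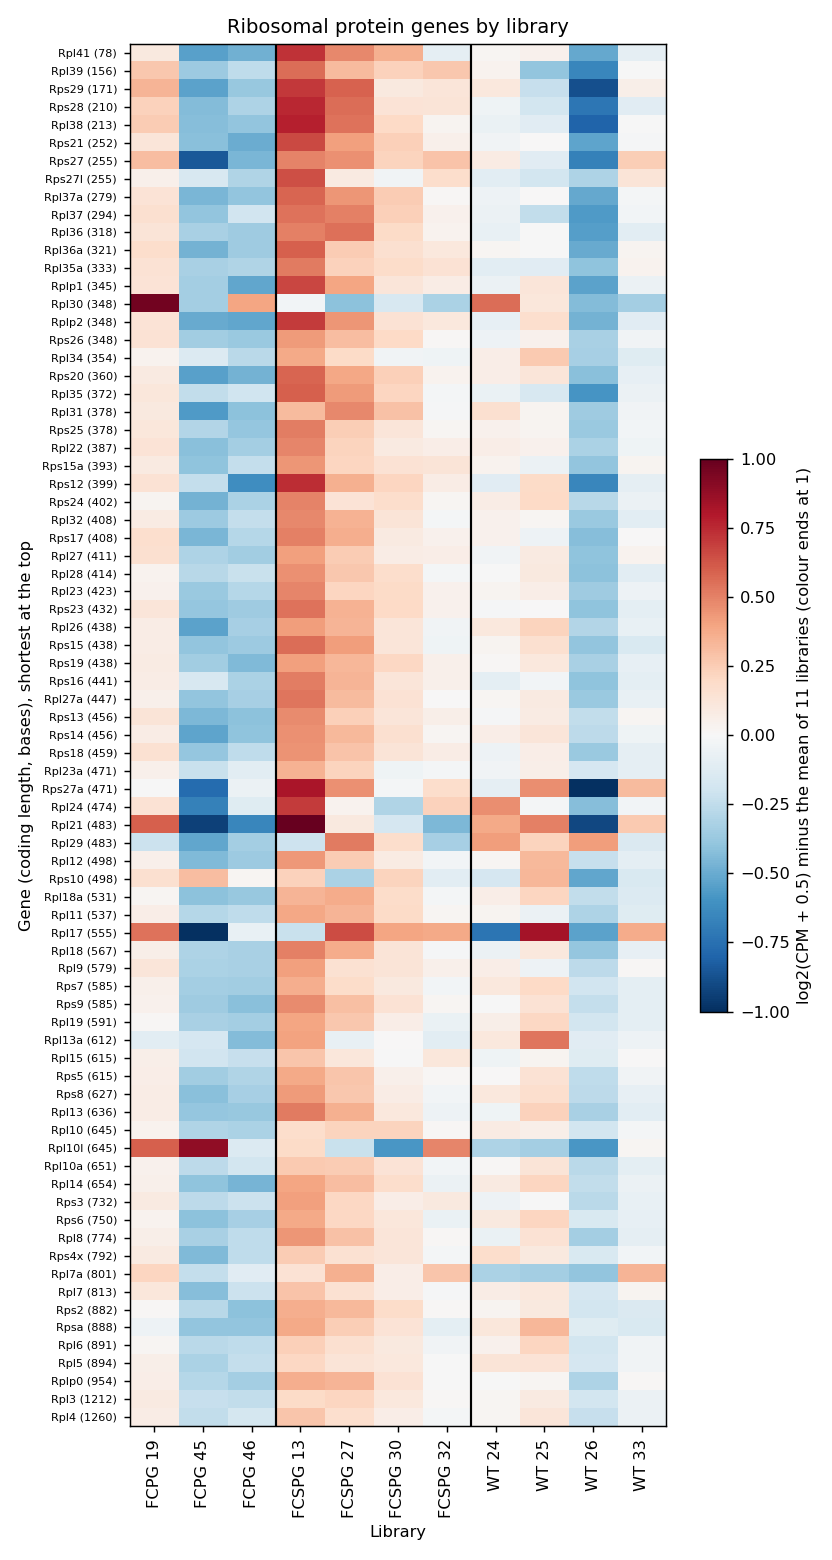
log2(CPM + 0.5) of 77 of the 78 tested genes in each library, as the difference from the mean of the 11 libraries, with genes ordered by coding length and groups divided by black lines. Over all 78 genes, FCSPG library 13 is the highest library for 66, and WT library 26 (for 29 genes), FCPG library 45 (for 32) and FCPG library 46 (for 16) hold most of the lowest values.

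FCSPG against FCPG compares the mutants with each other and gave the widest gap. Both earlier comparisons share the WT libraries, and this one shares its libraries with both. The median log2 fold change of FCSPG over FCPG was 0.43, against −0.0078 over all genes tested. Of the 78 genes, 75 were above 0 (96.2%, against 49.2% of all genes). Most other abundant coding genes of like length also lay above 0, as given below. All 71 ribosomal protein genes at 100 CPM or more were above 0, from 0.23 to 0.68. By edgeR 0 genes passed at an adjusted p under 0.05, and 0% of all genes did; DESeq2 called 0 higher (0.00603% of all genes) and limma-voom 0. At an unadjusted p under 0.05, 64 genes were higher (82.1%, against 4.77% of all genes) and 1, Rpl30, was lower (6.67% of all genes). Rpl23 and Rps15a had every FCSPG library above every FCPG library (2.56%, against 2.34% of all genes), and 0 genes had the reverse (2.33% of all genes). The 3 genes below 0 (3.85%, against 50.8% of all genes) were Rpl10l, Rpl30 and Rps10. The sign of Rps10 is uncertain, as most of its counts lay in rows of pseudogene copies, described below.

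Rps2, a small subunit protein at the entry of the mRNA channel, held 3262, 3166, 2881 and 2554 CPM in FCSPG libraries 13, 27, 30 and 32, against 2556, 2094 and 1903 CPM in FCPG libraries 19, 45 and 46. FCPG library 19 lay just above FCSPG library 32 and below the other FCSPG libraries; the log2 fold change was 0.44 ± 0.13 (SE), with an adjusted p of 0.435. Rps14, of the platform of the small subunit, held 1468, 1337, 1192 and 1083 CPM in FCSPG, against 1122, 740 and 809 CPM in FCPG (log2 0.51 ± 0.16 SE). Rps19, the gene most often mutated in human Diamond-Blackfan anaemia, held 1004, 950.3, 870 and 782 CPM in FCSPG, against 799.8, 593 and 555 CPM in FCPG (log2 0.47 ± 0.15 SE). In all 3 genes FCPG library 19 overlapped with the lowest FCSPG library.
Rps20 (log2 0.60 ± 0.19 SE) and Rps9 (0.47 ± 0.15 SE) of the small subunit and Rpl41 (0.68 ± 0.21 SE), Rplp2 (0.63 ± 0.21 SE) and Rpl10 (0.35 ± 0.11 SE) of the large subunit had adjusted p-values of 0.435 each. Rpl30 went the other way, with 30.6, 23.3, 27.8 and 24.9 CPM in FCSPG, against 61.1, 24.5 and 41.2 CPM in FCPG. FCPG libraries 19 and 46 lay above every FCSPG library and FCPG library 45 among them (log2 −0.67 ± 0.30 SE), and the row is a low one.

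Without FCPG library 19 this comparison changed its calls. The median log2 fold change was then 0.59, and edgeR called 40 of 79 tested ribosomal protein genes higher in FCSPG (50.6%, against 3.22% of all genes) and 0 lower (3.02% of all genes). They were 20 of the large and 20 of the small subunit, with log2 fold changes of 0.39 to 0.92 and 0.45 to 1.02. Rps14 had the smallest adjusted p, 0.0286 (log2 0.73 ± 0.14 SE), followed by Rps13 (0.0302), Rps2 and Rps19 (0.0309 each) and Rps20 (0.0315). This fit rests on FCPG libraries 45 and 46 alone. With all libraries kept except FCSPG library 13, 23 genes were higher at an unadjusted p under 0.05, against 3.16% of all genes. Without FCPG library 45 or 46 there were 19 and 13, against 1.95% and 2.46% of all genes. Visceral endoderm markers summed to 16479 and 4327 CPM in FCPG libraries 45 and 46, against 759 to 3668 CPM in the FCSPG libraries, and their part in the difference was not tested. In the authors' deposited table of FCPG and WT, 2 ribosomal protein genes are listed as higher in FCPG and 1 as lower, with 0 at an adjusted p under 0.05; it lists 3723 genes in all, 1200 of them at that threshold (767 higher and 433 lower). In the authors' deposited table of FCSPG and FCPG, 43 genes are listed as higher in FCSPG and 2, Rpl30 and Rpl39l, as lower, of 1482 genes listed in all, with 0 at an adjusted p under 0.05 among these and among all listed genes.

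The group means of both subunits followed the order of those of the summed share. Large subunit genes held 3.34% ± 0.67 of counts in FCPG (SD, n = 3), 4.38% ± 0.43 in FCSPG and 3.68% ± 0.44 in WT (SD, n = 4 each). Small subunit genes held 2.46% ± 0.51, 3.32% ± 0.35 and 2.79% ± 0.34 of counts in FCPG, FCSPG and WT. The ratio of large to small was 1.36 ± 0.015 in FCPG (SD, n = 3), 1.32 ± 0.019 in FCSPG and 1.32 ± 0.019 in WT (SD, n = 4 each), and ran from 1.30 to 1.37 over all libraries, while the summed share ran from 4.85% to 8.54%. FCPG libraries held 1.35, 1.35 and 1.37, against 1.31, 1.31, 1.32 and 1.35 in WT, so that WT library 33 overlapped with FCPG. FCSPG libraries 13, 27, 30 and 32 held 1.30, 1.34, 1.33 and 1.32, all below the FCPG libraries; no test of the ratio was run. The median log2 fold change was −0.10 for large and −0.15 for small subunit genes in FCPG over WT, 0.28 and 0.32 in FCSPG over WT, and 0.42 and 0.44 in FCSPG over FCPG.

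Short genes had the larger values in FCSPG over WT. Coding length was taken from the principal transcript of GENCODE M21. The 10 abundant genes with a coding length of up to 300 bases had a median log2 fold change of 0.53, the 33 with more than 300 and up to 500 bases 0.33, and the 28 with more than 500 bases 0.21. Within the middle class, 17 large subunit genes had a median of 0.32 and 16 small subunit genes one of 0.33; above 500 bases the medians were 0.21 and 0.20. Across the 71 genes, which are not independent replicates and share libraries, Spearman's rho of the fold change with coding length was −0.80. In FCSPG over FCPG it was −0.64 and in FCPG over WT −0.38. With the authors' gene length, which counts all annotated exons, rho over the 78 tested genes was −0.16 in FCPG over WT, −0.35 in FCSPG over WT and −0.24 in FCSPG over FCPG. Over the same 78 genes, rho with coding length was −0.35, −0.66 and −0.57 in these comparisons. The tested large and small subunit genes had median gene lengths of 1770 and 1830 bases and median coding lengths of 483 and 441 bases.

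**Figure D4:**
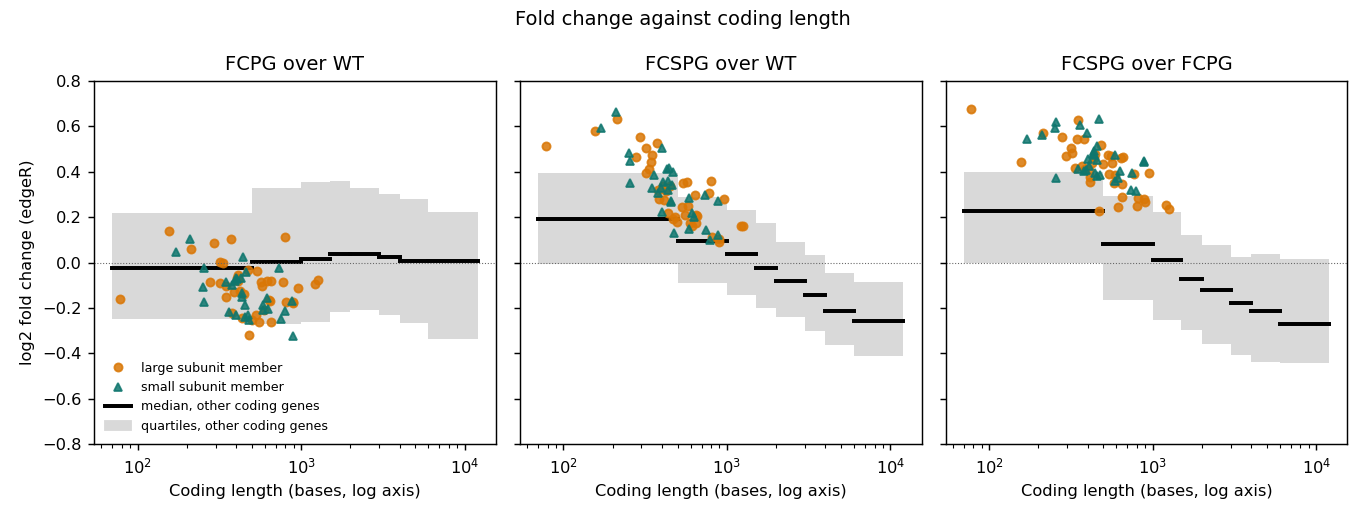
log2 fold change against coding length (log axis) for the 71 ribosomal protein genes at 100 CPM or more, in the 3 comparisons, with the median and quartiles of other protein-coding genes in length classes. In FCSPG over WT the members' class medians run from 0.53 for the shortest to 0.21 for those above 500 bases, and other genes slope the same way from 0.19 to −0.26.

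The slope was not limited to ribosomal protein genes. Among other tested protein-coding genes, the 1118 with coding lengths of up to 500 bases had a median log2 fold change of 0.19 in FCSPG over WT, and the 367 with more than 6000 bases had one of −0.26. In FCPG over WT the same classes, which hold genes of low and of high level, were at −0.02 and 0.0055. Among other coding genes at 100 CPM or more, those with up to 300 bases (51 genes) had a median of 0.22 in FCSPG over WT, those above that and up to 500 bases (152 genes) 0.20 and those up to 1000 bases (484 genes) 0.09. In these classes 86.27%, 82.89% and 71.07% of the other genes lay above 0. In FCSPG over FCPG their medians were 0.36, 0.25 and 0.13, with 94.12%, 88.16% and 72.11% above 0. In FCPG over WT their medians were −0.13, −0.08 and −0.05, with 35.29%, 38.82% and 39.46% above 0. Of the ribosomal protein genes in these classes, 10 of 10, 30 of 33 and 26 of 26 lay above the median of the others in FCSPG over WT. In FCSPG over FCPG 10 of 10, 32 of 33 and 26 of 26 did. In FCPG over WT 8 of 10, 13 of 33 and 3 of 26 did.

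Length and ribosomal protein levels also moved together between libraries of 1 genotype. In FCSPG library 13, 814 other coding genes with an mRNA of up to 1000 bases lay 0.44 above their mean over all libraries (median, log2) and 1623 genes with more than 6000 bases lay 0.30 below (−0.30), while the ribosomal protein genes lay 0.45 above. In WT library 26 the same medians were −0.30 and 0.25, with the ribosomal protein genes at −0.35. FCPG library 45 departed from this, with short genes at −0.07 and ribosomal protein genes at −0.36. When the trend with mRNA length was removed from each library, an alternative chosen after seeing the data, the median over ribosomal protein genes was 0.05 in FCSPG over WT, with 52 of 78 above 0 (50.3% of all genes in that fit) and 6 higher at an unadjusted p under 0.05 (5.02% of all genes). It was 0.14 in FCSPG over FCPG, with 72 above 0 (47.9% of all genes) and 18 higher at that p (3.26% of all genes), and −0.10 in FCPG over WT. With the authors' gene length in place of mRNA length the medians were 0.19, 0.30 and −0.10. The part of RNA quality and library preparation in these values was not tested.

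**Figure D5:**
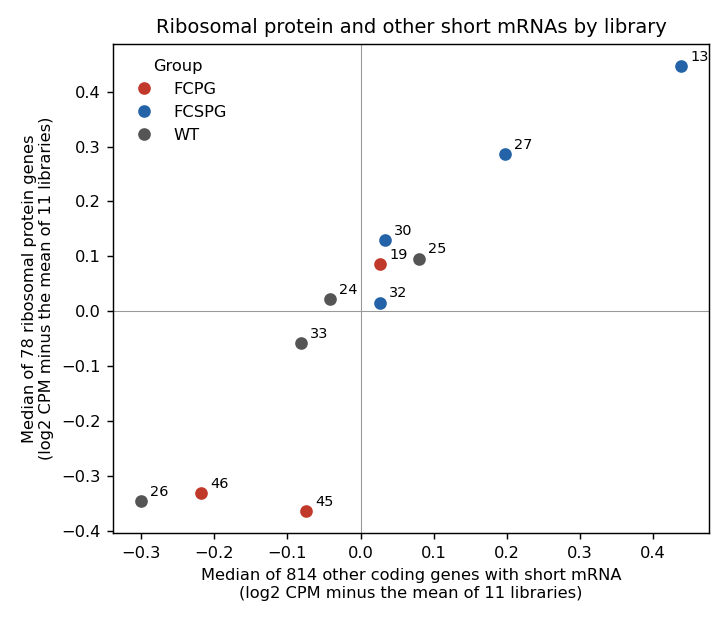
Median over the 78 ribosomal protein genes against the median over 814 other coding genes with short mRNAs, each as log2 CPM minus the mean of the 11 libraries, with 1 point per library. FCSPG library 13 lies at the top right (0.44 and 0.45), WT library 26 at the bottom left (−0.30 and −0.35), and FCPG library 45 lies below the others at its short-gene value (−0.07 and −0.36).

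Copies of ribosomal protein genes are common in the mouse genome. The table has 311 rows named as pseudogenes of these genes, 185 of them with counts, and 61 of the 80 genes have at least 1. Their counts came to 6.83% to 8.23% of those of the genes themselves in each library. In 4 genes, Rps10, Rpl34, Rpl21 and Rpl17, the pseudogene rows held more counts than the gene. For Rps10, a protein of the head of the small subunit, they held 95.2% of both, 307 CPM against 15.5 CPM in the gene's own row. For Rpl34 they held 94.0%, 402 CPM against 25.4 CPM. The levels of these 4 genes are therefore uncertain. In 14 genes, these 4 included, 10% or more of both lay in pseudogene rows, which leaves their levels uncertain to that extent. The next highest were Rps7 at 44.5% and Rpl3 at 38.3%. Only pseudogene rows carrying the symbol of the gene were counted. Rpl24 has 0 named pseudogene rows, and those of Rpl29 held 2.06% of both. With pseudogene counts added to each gene the median log2 fold changes were −0.12, 0.30 and 0.43 in FCPG over WT, FCSPG over WT and FCSPG over FCPG. Rps10 then changed sign, from 0.27 to −0.08 in FCPG over WT and from −0.15 to 0.40 in FCSPG over FCPG. Another annotated row overlapped 45 of the genes, in 29 cases a small nucleolar RNA and in 17 cases a protein-coding gene. On the same strand, the protein-coding rows Gm49804 and Gm45713 overlapped Rps10 and Rpl13a, and the long noncoding RNA Gm28037 overlapped Rpl24, each at 0 CPM. Rpl19, at 1026 CPM, also had such a noncoding row, Gm11629, at 0.19 CPM. The part of shared reads in the low rows was not tested.
Rps27l, a paralogue of Rps27 that is a p53 target, held 167, 144 and 131 CPM in FCPG, 252, 171, 157 and 182 CPM in FCSPG and 150.04, 142, 130.2 and 176 CPM in WT. Its log2 fold change was −0.02 ± 0.17 in FCPG over WT and 0.35 ± 0.15 in FCSPG over WT (SE), with groups that overlap. Rps27 itself, at 221, 99.4 and 130.2 CPM in FCPG and 253, 246, 208 and 218 CPM in FCSPG, against 189, 165, 112 and 213 CPM in WT, had log2 fold changes of −0.18 ± 0.26 and 0.45 ± 0.24. The muscle paralogue Rpl3l had 1 to 6 counts in each library, against a mean of 1147 CPM in the own row of Rpl3.

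Other genes of the translation machinery were read from lists, by counts and medians. Of all genes tested, 50.2%, 49.9% and 49.2% were above 0 in FCPG over WT, FCSPG over WT and FCSPG over FCPG, and 49.8% were below 0 in FCPG over WT. Of 8 ribosomal protein genes that the naming rule misses, 8 were above 0 in FCSPG over WT, with a median log2 fold change of 0.15, and 3 in FCPG over WT, with a median of −0.04. Among them Fau, which encodes Rps30, was at 0.34 ± 0.16 and Rack1, a scaffold on the small subunit, at 0.22 ± 0.10 (log2, SE) in FCSPG over WT. Of 16 other genes with TOP mRNAs, mainly elongation and initiation factors, 15 were below 0 in FCPG over WT (median −0.13), 14 were above 0 in FCSPG over WT (median 0.07) and 15 were above 0 in FCSPG over FCPG (median 0.27). By edgeR 0 of them passed at an adjusted p under 0.05. At an unadjusted p under 0.05, 13% of all genes were higher and 8.88% lower in FCPG over WT. These shares were 6.24% and 4.76% in FCSPG over WT, and 4.77% and 6.67% in FCSPG over FCPG. Of the 16 TOP genes 0 were higher and 1 lower at that p, 0 and 0, and 7 and 0 in the 3 comparisons. The lower one was Nap1l1, a histone chaperone, with a log2 fold change of −0.37 ± 0.15 (SE) in FCPG over WT; Tpt1, a growth-related protein, was at 0.23 ± 0.13 (SE) in FCSPG over WT.
Of 37 genes of ribosome biogenesis 22, 28 and 23 were above 0 in FCPG over WT, FCSPG over WT and FCSPG over FCPG, with medians of 0.02, 0.09 and 0.03, and of 23 initiation factors 9, 14 and 15, with medians of −0.06, 0.06 and 0.07. Hosts of small nucleolar RNAs, whose mRNAs also carry TOP motifs, had medians of 0.04, 0.15 and 0.08 over 7 genes. Of 16 regulators of the mTORC1, LARP1 and MYC axis 12, 9 and 3 were above 0, with medians of 0.10, 0.01 and −0.10. Larp1, which binds TOP mRNAs, had a log2 fold change of 0.38 ± 0.11 (SE) in FCPG over WT and 0.08 ± 0.10 in FCSPG over WT. Mycn, a transcription factor of growing progenitors, had one of −0.52 ± 0.18 in FCPG over WT, and Eif4ebp1, an inhibitor of initiation that mTORC1 inactivates, one of 0.40 ± 0.13 in FCSPG over WT. Of 11 p53 targets 4, 8 and 8 were above 0, with medians of −0.15, 0.13 and 0.54; Cdkn1a, a cell cycle inhibitor, was at 0.76 ± 0.25 in FCSPG over WT. Mitochondrial mRNAs made up 0.55% to 0.94% of counts in FCPG, 0.85% to 1.17% in FCSPG and 0.87% to 1.51% in WT. In all of these lists 0 genes passed edgeR's test after adjustment over all 16572 genes.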

How the data were processed

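PolyA RNA of dissected tailbud was sequenced from a stranded mRNA kit, per the labels. The authors aligned reads with HISAT2 to mm39, made counts per gene with featureCounts and tested them with DESeq2, per the submitters' processing notes; versions, annotation release, strand setting and the handling of reads with several matches are not given in the sources used here. The deposited whole-number counts were the main data. The authors' deposited FPKM values served as an alternative for levels per length, and the authors' deposited gene length, an annotation score per gene in bases, as the length. The authors' deposited comparison tables hold a log2 fold change and a p-value, raw and adjusted, for genes with p under 0.05; signs were turned here to mutant over WT and FCSPG over FCPG. Columns were assigned to genotypes by their names, with 0 left over.

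CPM values are counts scaled by TMM library size. Genes were kept by filterByExpr, which left 16572, and tested by edgeR 4.0.16's quasi-likelihood F test (two-sided, 3 groups, all 11 libraries) in R 4.3.3, with Benjamini-Hochberg adjustment over all genes tested and a threshold of 0.05. SE values are the log2 fold change divided by the square root of F. Shares, medians and rank correlations are descriptions without a test. Coding and mRNA lengths come from GENCODE M21 and start windows from RefSeq. Simulated counts with known changes served to try out the fit. The fitted coefficient of variation between libraries, common to all genes, was 0.325. The median coefficient of variation over the members was 19.1% in FCPG, 13.9% in FCSPG and 13.8% in WT.

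The members and gene lists were chosen with earlier results of these data known. Genes named are, per comparison, the 5 with the smallest p in each direction, the 3 highest and 3 lowest per length, the stalk genes, Rpsa, paralogues with their parents, genes not tested, and 2 per other list; Rpl38, Rpl5, Rpl6 and the genes of the leave-one-out fits were singled out after their values were seen. A gene that the rule names is not reported here by itself and is not drawn in the heat map; it stays in all counts and medians. Alternatives were DESeq2 size factors, TMM without the members, DESeq2 1.42.0, limma-voom (limma 3.58.1), other filters, only 2 groups, length offsets, added pseudogene counts and left-out libraries.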

Additional observations from a re-analysis of the deposited data

Results flagged for a closer look

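Among 72 groups of 4 libraries examined for a library far from the other 3, 3 were flagged, and chance flags about 1 in 20 such groups. WT library 33 had a large to small subunit ratio of 1.352, against 1.31 to 1.32 in the other WT libraries. The same library held 716.3 CPM of Rpl7a, against 431 to 455 CPM in the other WT libraries; Rpl7a hosts small nucleolar RNAs in its introns. WT library 26 held 1229 CPM of Rplp0, against 1518 to 1542 CPM in the other WT libraries, and was the lowest WT library for 75 of 78 genes.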

How the results depend on the processing

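No paired analysis was possible because the count columns carry none of the replicate numbers in the sample titles. The number of all genes called in FCPG over WT was 0 in the reported fit, 1477 with DESeq2, 403 with no filter on low counts, 144 in the female libraries, which leave 1 FCPG library assumed to vary like the other groups, and 0 to 2736 with 1 library left out. In FCSPG over WT it was 0, 41 with DESeq2 and 0 to 4, and in FCSPG over FCPG 0, 1 with DESeq2, 28 in the female libraries and 0 to 1063. With 1 library left out, ribosomal protein genes called ranged from 0 to 1 in each direction in FCPG over WT and from 0 to 40 higher in FCSPG over FCPG. With the mRNA length offset, the median log2 fold change was 0.0475 in FCSPG over WT and 0.14 in FCSPG over FCPG. The median kept its sign in every alternative run, from −0.30 to −0.05 (FCPG over WT), 0.21 to 0.34 (FCSPG over WT) and 0.33 to 0.59 (FCSPG over FCPG) with 1 library left out. The cause of these shifts was not tested. Under these alternatives single ribosomal protein genes passed the threshold only without FCPG library 19, 2 in FCPG over WT and 40 in FCSPG over FCPG. Of the 2, Rpl39l was not tested in the reported fit.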
